A study of Mus musculus with 8 samples.

Results

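Adipokines, the hormones and other signalling proteins that fat cells release, were followed through 9 genes in RNA purified from UCP1-positive cells of white and brown fat. The genes were taken by symbol from the deposited files and were Retn, Adipoq, Lep, Cfd, Rbp4, Agt, Nampt, Apln and Nnat. All 9 were found among 22552 genes, and 6 of 9 passed the filter for testing. That filter asked for 1 or more FPKM in 2 or more libraries and kept 8958 of all genes. FPKM is the number of fragments divided by transcript length and by library size, so that levels can be compared between genes. All mice were female, of a strain given as C57B/6 UCP1-TRAP, carried the tag and were kept in the cold. TRAP is translating ribosome affinity purification: a GFP-tagged ribosome is made in cells that use the Ucp1 gene, and an antibody against GFP raised in rabbit pulls down the ribosomes with their mRNA. Every animal was bred at 30 °C, weaned at 3 weeks to room temperature, placed at 4 °C at 4 weeks and sampled after 2 weeks, at 6 weeks of age. The groups were 3 libraries of inguinal white adipose tissue (WAT), 2 of perigonadal WAT and 3 of interscapular brown adipose tissue (BAT). No untreated or warm group was analysed here, and cells of a depot without Ucp1 are outside the tag, so the levels describe UCP1-positive cells and whatever RNA came down with them.

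Adipokines link the fat store to the rest of the body. Leptin reports the size of the store to the brain, adiponectin raises the insulin sensitivity of liver and muscle, and resistin in mice opposes insulin. White adipocytes, which store triglyceride in a large droplet, are the best known source of leptin and resistin, whereas adiponectin and adipsin are made by both white and brown adipocytes.

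The libraries were shallow and unequal, with an estimated 269766 to 1174952 fragments each. The lowest number belonged to inguinal replicate 3 and the highest to perigonadal replicate 1. Across the tested genes, the log2 difference had a median of 0.03 between inguinal WAT and BAT, of 0.52 between perigonadal WAT and BAT and of -0.50 between inguinal and perigonadal WAT (first minus second group). Median-ratio scaling, which divides each library by a factor of its own, brought these to 0.01, 0.03 and -0.01. Scaled values are therefore given beside the deposited ones for most results of the members. The labels do not say that libraries came from separate animals, so a p-value rests on the spread between libraries and no more, and that spread may be technical. The test also pools spread over all tested genes, so a p-value does not measure a gene's own spread alone. The defining gene of the tag, Ucp1, had 592 to 1417 FPKM in inguinal WAT, 1282 to 1593 in perigonadal WAT and 1313 to 1575 in BAT as deposited. The scaling factors were 0.545 to 1.21 in inguinal WAT, 1.81 and 1.16 in perigonadal WAT and 0.886 to 0.928 in BAT. After scaling, Ucp1 of every white library therefore lay below that of every BAT library. The 18 summed markers of mature adipocytes had 4208 to 9005 FPKM in inguinal WAT, 10342 to 16812 in perigonadal WAT and 4464 to 4962 in BAT (6320 to 7927, 8954 to 9301 and 5038 to 5345 after scaling). Much of the gap in this sum came from Scd1 and Fasn, enzymes of fatty acid synthesis. Scd1 had 486 to 1345 FPKM in inguinal WAT, 4428 and 2413 in perigonadal WAT and 54.5 to 110 in BAT. Fasn had 348 to 700, 1204 and 870, and 30.2 to 72.3 FPKM in the same order. The sum is thus no measure of the number of adipocytes. The RNA is a bulk sample, in which fewer cells of a type and less RNA per cell cannot be told apart.

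The 200 bases before the annotated start of 4 members are shown first, because 3 of them, Retn, Cfd and Lep, were called higher in perigonadal WAT than in BAT and the fourth, Adipoq, was not called. They come from RefSeq on build GRCm38.p6, plus strand: chr8:3655570-3655769 for Retn, chr10:79890653-79890852 for Cfd, chr6:29060021-29060220 for Lep and chr16:23146336-23146535 for Adipoq. All 9 members had an entry there, and Rbp4, which was also called higher in perigonadal WAT than in BAT, is not printed. The call of Lep was lost after scaling, as given below. Capitals mark matches to TTGCNNAA (a core of the motif bound by C/EBP factors, searched on both strands, so also as TTNNGCAA), CCAAT (both strands, so also as ATTGG) and TATAA (printed strand).
Retn: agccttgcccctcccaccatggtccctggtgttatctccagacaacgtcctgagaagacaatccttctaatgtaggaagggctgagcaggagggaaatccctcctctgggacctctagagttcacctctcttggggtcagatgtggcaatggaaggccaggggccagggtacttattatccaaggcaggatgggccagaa
Cfd: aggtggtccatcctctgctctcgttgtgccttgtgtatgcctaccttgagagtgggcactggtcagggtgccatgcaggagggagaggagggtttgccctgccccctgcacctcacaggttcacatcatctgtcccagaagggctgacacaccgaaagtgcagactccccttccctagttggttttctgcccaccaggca
Lep: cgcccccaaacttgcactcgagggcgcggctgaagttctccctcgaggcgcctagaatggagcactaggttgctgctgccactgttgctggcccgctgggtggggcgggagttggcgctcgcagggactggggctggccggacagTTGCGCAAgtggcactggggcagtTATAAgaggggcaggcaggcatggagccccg
Adipoq: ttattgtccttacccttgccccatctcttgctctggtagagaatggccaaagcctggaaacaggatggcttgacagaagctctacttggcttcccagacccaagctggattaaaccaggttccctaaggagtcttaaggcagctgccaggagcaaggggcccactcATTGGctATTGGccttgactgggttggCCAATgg
The Lep window held TTGCGCAA from 55 to 48 bases before the start and TATAA from 31 to 27 bases before it. The Adipoq window held ATTGG at 34 to 30 and 27 to 23 bases and CCAAT at 7 to 3 bases before the start. These letters were not in the Retn and Cfd windows. The same length before the start of 32851 mouse promoters held TTGCNNAA in 7.5 percent, CCAAT in 29.3 percent and TATAA in 13.0 percent. A match of letters describes the sequence and is no evidence that a factor was bound.

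RNA from UCP1-positive cells of both white depots held more Retn and Cfd than RNA from BAT, while Adipoq and Nampt did not pass the test in any comparison. Lep and Rbp4 were called higher than BAT in perigonadal WAT, and Rbp4 was also called lower in inguinal than in perigonadal WAT. Agt, Apln and Nnat did not pass the filter, since each reached 1 FPKM in 1 library alone. Calls come from limma on log2(FPKM + 1) with all 8 libraries, with Benjamini-Hochberg adjustment over 8958 genes and a threshold of 0.05. Of the 6 tested members, 2 were called higher in inguinal WAT than in BAT and 0 lower, where 2.2 percent of all tested genes were called (1.73 percent higher and 0.469 percent lower). In perigonadal WAT 4 were called higher and 0 lower, where 5.18 percent of all genes were called (4.91 percent higher and 0.268 percent lower). Between the white depots 1 was called lower in inguinal WAT, where 0.703 percent of all genes were called (0.301 percent higher and 0.402 percent lower). After scaling 2 members were called higher in inguinal WAT than in BAT, beside 4.69 percent of all genes (3.04 percent higher and 1.65 percent lower). Scaling left 3 called higher in perigonadal WAT, beside 6.1 percent of all genes (2.63 percent higher and 3.46 percent lower), and 0 between the white depots, beside 0.313 percent of all genes, each of them higher in inguinal WAT. The members' median log2 differences were 1.03, 2.50 and -1.22 (1.03, 2.00 and -0.70 after scaling), beside the medians of all genes given above. Members low in BAT passed the filter through the white libraries, so these counts and medians describe the 6 genes and are no test of the list. Both white depots were set against the same 3 BAT libraries.

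**Figure D1:**
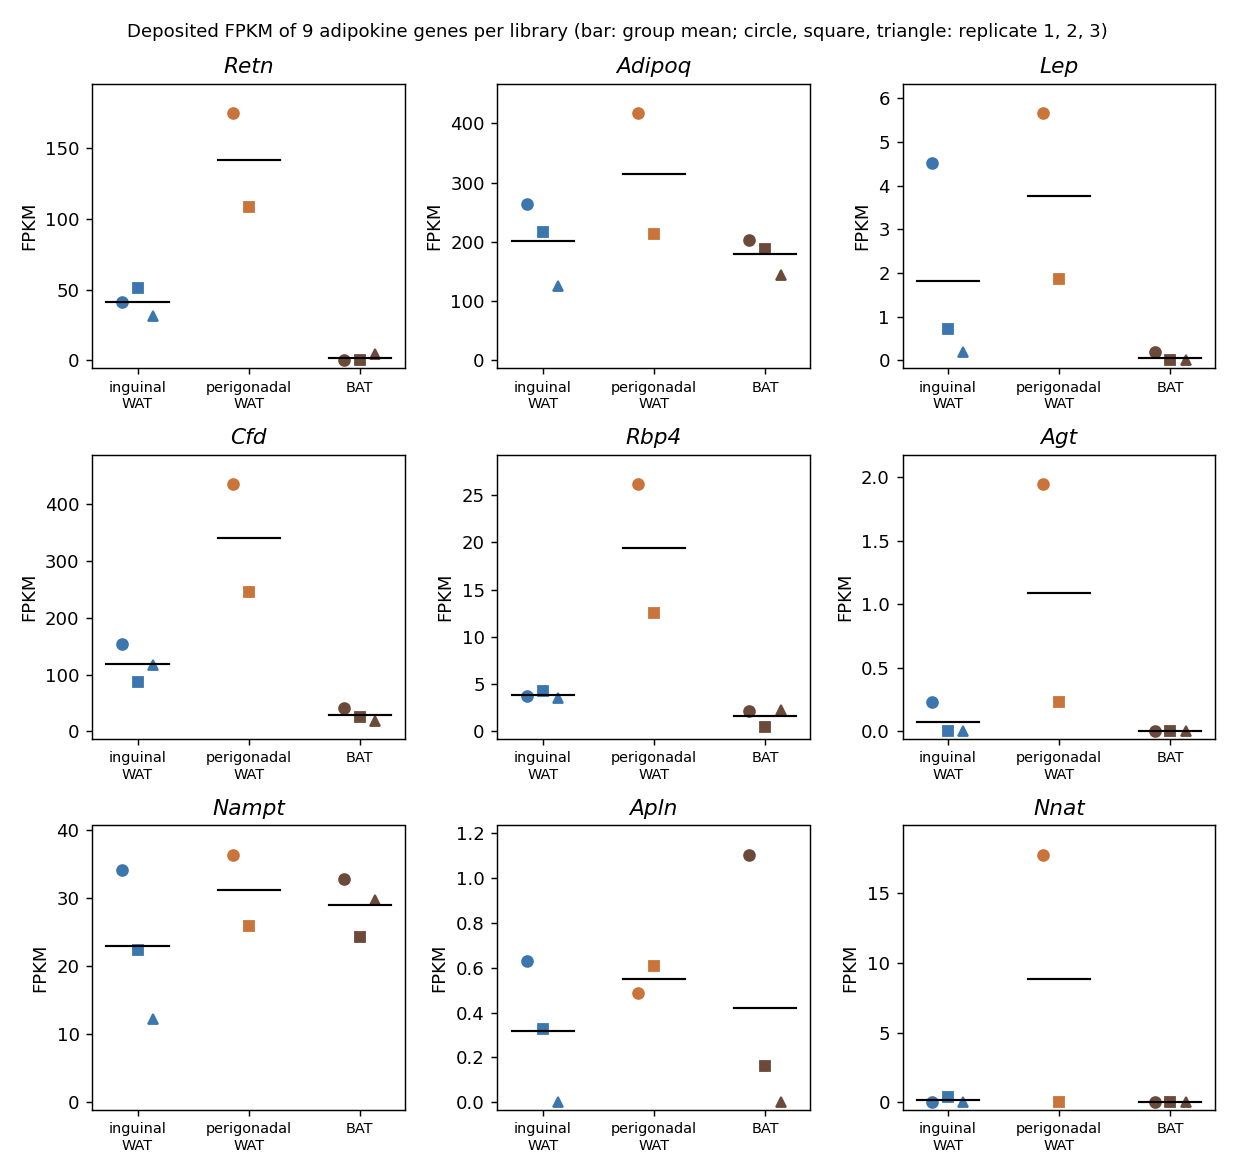
Deposited FPKM (linear y axis from 0, a scale of its own in each panel) of the 9 genes in each library of inguinal WAT, perigonadal WAT and BAT, with the group mean as a bar and the replicate number as the symbol. Retn and Cfd separate all 3 groups, Adipoq and Nampt overlap between inguinal WAT and BAT, and Nnat stands at 17.7 FPKM in perigonadal replicate 1 alone.

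Adipoq encodes adiponectin, a hormone of adipocytes that circulates as multimers, and lies at chr16:23146609-23158041 on the plus strand (build mm9, as are all gene positions that follow). It had 264, 216 and 126 FPKM in inguinal replicates 1 to 3. It had 417 and 213 FPKM in perigonadal replicates 1 and 2. It had 204, 188 and 145 FPKM in BAT replicates 1 to 3. Inguinal WAT and BAT overlapped, and the perigonadal libraries lay above every BAT library but overlapped with inguinal WAT. Among all genes of a library Adipoq ranked between 54 and 156, so it was abundant in every sample. The log2 difference was 0.12 for inguinal WAT against BAT (adjusted p = 0.995), 0.75 for perigonadal WAT against BAT (adjusted p = 0.235) and -0.62 for inguinal against perigonadal WAT (adjusted p = 0.413). After scaling the differences were 0.12, 0.08 and 0.04, and the libraries ran from 164 (BAT replicate 3) to 232 (inguinal replicate 3) scaled FPKM. The sign between the white depots thus depended on the scaling. Without inguinal replicate 1 the inguinal difference from BAT was -0.10, and without BAT replicate 3 it was -0.02. A p over the threshold does not show that the depots held the same amount.

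Lep encodes leptin, the satiety hormone of white fat, and lies at chr6:29010221-29023876 on the plus strand. It had 4.53, 0.715 and 0.198 FPKM in inguinal WAT, 5.66 and 1.87 FPKM in perigonadal WAT, and 0.194, 0 and 0 FPKM in BAT. These correspond to 26, 4 and 1 fragments, 43 and 11 fragments, and 1, 0 and 0 fragments. The first inguinal library stood with the perigonadal ones, and the lowest inguinal value was almost that of the highest BAT library. Lep rose in perigonadal WAT against BAT by 2.04 on the log2 scale (SE 0.46, adjusted p = 0.00188), a value that depends on the pseudocount because BAT held a single fragment. The call was lost after scaling (1.63, adjusted p = 0.0734) and without perigonadal replicate 1 (1.44, adjusted p = 0.298). It was also lost with no filter (adjusted p = 0.414) or with the most abundant transcript of each gene alone (adjusted p = 0.0845). Inguinal WAT against BAT gave 1.08 (adjusted p = 0.238) and inguinal against perigonadal WAT -0.96 (adjusted p = 0.387).

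Retn encodes resistin, a small cysteine-rich hormone made by adipocytes in mice, and lies at chr8:3655770-3659818 on the plus strand. It had 41.4, 51.2 and 31.3 FPKM in inguinal WAT. It had 174 and 108 FPKM in perigonadal WAT. It had 0.628, 0 and 4.86 FPKM in BAT, or an estimated 6.3 fragments over the 3 libraries. Every inguinal library was above every BAT library, and every perigonadal library was above every inguinal one. The mean was 22.6 times that of BAT in inguinal WAT (41.3 ± 9.96 against 1.83 ± 2.64 FPKM, SD, n = 3 each), a log2 difference of 4.29 (SE 0.44, adjusted p = 1.02e-11). In perigonadal WAT it was 77.2 times (141 ± 46.8 FPKM, SD, n = 2), a log2 difference of 6.03 (SE 0.49, adjusted p = 7.27e-16). Scaling gave 4.36 (adjusted p = 0.0015) and 5.44 (adjusted p = 0.00111), and both calls held when any 1 library was left out, with log2 differences of 3.75 to 5.02 and 5.49 to 6.76. With no filter on low values the inguinal call was lost (adjusted p = 0.219) and the perigonadal one was not. Inguinal against perigonadal WAT gave -1.74 and missed the threshold (adjusted p = 0.0767). Leaving out inguinal replicate 2 (adjusted p = 0.0252) or perigonadal replicate 2 (adjusted p = 0.0377) brought it past the threshold, and scaling gave -1.08 (adjusted p = 0.722).

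The files list 2 Retn transcripts that share a first base, of 582 and 1138 nt. The shorter one held 95.6 to 100 percent of Retn FPKM in the 5 white libraries and 100 percent in BAT replicate 3. The value of BAT replicate 1, about 1 fragment, was assigned to the longer transcript. Cufflinks divided fragments between the overlapping transcripts, so the split at so few fragments is uncertain.

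Cfd encodes adipsin, or complement factor D, the serine protease that starts the alternative complement pathway by cutting factor B, and lies at chr10:79353598-79355401 on the plus strand. It had 154, 87.5 and 116 FPKM in inguinal WAT. It had 434 and 245 FPKM in perigonadal WAT and 41.7, 24.7 and 18.3 FPKM in BAT. The groups did not overlap in any pair, and Cfd stayed far above the floor in BAT, with 37 to 73 fragments per library. Inguinal WAT had a mean 4.23 times that of BAT (119 ± 33.4 against 28.2 ± 12.1 FPKM, SD, n = 3 each), a log2 difference of 2.08 (SE 0.37, adjusted p = 7.99e-05). Perigonadal WAT had a mean 12.04 times that of BAT (340 ± 134 FPKM, SD, n = 2; log2 difference 3.56, SE 0.42, adjusted p = 1.22e-09). Both calls held after scaling (2.08, adjusted p = 0.00921, and 2.90, adjusted p = 0.0032) and when any 1 library was left out (1.83 to 2.40 and 3.15 to 3.98). With no filter on low values the inguinal call of Cfd was lost (adjusted p = 0.304). Inguinal against perigonadal WAT gave -1.48 (adjusted p = 0.0763), -0.81 after scaling (adjusted p = 0.68), and -1.89 without perigonadal replicate 2 (adjusted p = 0.05 when rounded, and just past the threshold). Scaled Cfd of inguinal replicate 3, 214 FPKM, lay beside the perigonadal values of 240 and 212.

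**Figure D2:**
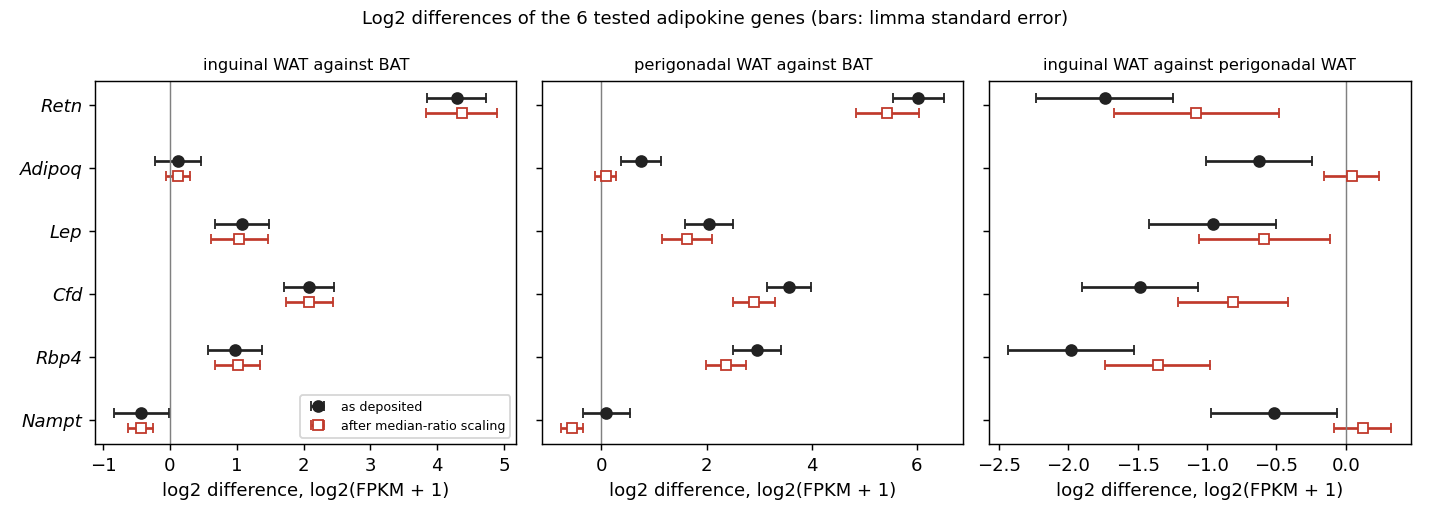
Log2 differences of the 6 tested genes on the log2(FPKM + 1) scale (x axis) in the 3 comparisons, with bars for limma's standard error, as deposited (filled circles) and after median-ratio scaling (open squares). Retn and Cfd lie right of 0 against BAT on both scales, whereas Adipoq and Nampt change side between the white depots when scaled.

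Rbp4 encodes retinol-binding protein 4, the carrier of vitamin A in blood, made mainly by liver and also by fat, and lies at chr19:38191110-38199811 on the minus strand. It had 3.78, 4.32 and 3.54 FPKM in inguinal WAT, 26.1 and 12.6 FPKM in perigonadal WAT, and 2.13, 0.484 and 2.26 FPKM in BAT. The groups were ordered perigonadal, inguinal, BAT with no overlap, and an estimated 8 fragments in all lay behind the BAT values. Perigonadal WAT had a mean 11.9 times that of BAT (19.3 ± 9.60, SD, n = 2, against 1.62 ± 0.990 FPKM, SD, n = 3; log2 difference 2.95, SE 0.45, adjusted p = 2.26e-06), and 2.37 after scaling (adjusted p = 0.0065). That call held without any 1 library (2.45 to 3.46) and was lost with no filter (adjusted p = 0.0866). Inguinal WAT against BAT gave 0.98 (adjusted p = 0.351). Rbp4 fell by 1.98 on the log2 scale in inguinal against perigonadal WAT (SE 0.45, adjusted p = 0.0125). That call was lost after scaling (-1.36, adjusted p = 0.288) and without inguinal replicate 1 (adjusted p = 0.0994), inguinal replicate 3 (0.0959) or perigonadal replicate 1 (0.742). It was also lost when the fit held those groups alone (adjusted p = 0.0978), with no filter (0.416), with a pseudocount of 0.1 (0.471) and with the most abundant transcript alone (0.197).

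Nampt encodes nicotinamide phosphoribosyltransferase, the enzyme that recycles nicotinamide into NAD and is also found outside cells under the name visfatin. It lies at chr12:33505200-33538234 on the plus strand. It had 34.2, 22.4 and 12.3 FPKM in inguinal WAT, 36.4 and 26.0 FPKM in perigonadal WAT, and 32.8, 24.3 and 29.8 FPKM in BAT. All groups overlapped as deposited, and the lowest value was that of the shallowest library. The log2 differences were -0.42 (adjusted p = 0.961), 0.09 (adjusted p = 0.905) and -0.52 (adjusted p = 0.487) in the order used above. After scaling they were -0.43, -0.55 and 0.12 (adjusted p = 0.232, 0.159 and 0.926), so the direction of perigonadal WAT against BAT and of the white depots against each other flipped with the scaling. Scaled Nampt was 20.1 and 22.5 FPKM in perigonadal WAT and 26.8 to 35.3 in BAT, without overlap. Inguinal WAT still overlapped with both.

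Angiotensinogen and apelin rested on few fragments. Agt, the precursor of the angiotensin peptides, lies at chr8:127080487-127093607 on the minus strand. It had 0.233, 0 and 0 FPKM in inguinal WAT, 1.95 and 0.228 FPKM in perigonadal WAT and 0 in all BAT libraries. Perigonadal replicate 1, the deepest library, held 11 Agt fragments, perigonadal replicate 2 and inguinal replicate 1 held 1 each, and 3 fragments over the BAT group would equal 0.308 FPKM. Apln, the precursor of the peptide hormone apelin, lies at chrX:45378323-45388029 on the minus strand. It had 0.629, 0.326 and 0 FPKM in inguinal WAT, 0.489 and 0.607 FPKM in perigonadal WAT and 1.10, 0.162 and 0 FPKM in BAT, from at most 6 fragments a library. All groups overlapped, and the highest and a lowest value of Apln were both in BAT.

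Nnat encodes neuronatin, an imprinted proteolipid of the endoplasmic reticulum membrane rather than a secreted hormone, and lies at chr2:157385846-157388255 on the plus strand. It had 17.7 FPKM in perigonadal replicate 1, or an estimated 56.7 fragments, and 0 in perigonadal replicate 2. The other libraries held 0.407 FPKM in inguinal replicate 2 and 0 elsewhere, and 3 fragments over the BAT group would equal 0.451 FPKM. A single library thus carried nearly all Nnat. The gene lies inside the span of Blcap (chr2:157382098-157392097, minus strand) without overlap of exons in the files. Blcap had 20.7 FPKM in perigonadal replicate 1 and 3.27 to 10.2 FPKM in the other libraries as deposited. The scaling factor of perigonadal replicate 1 was 1.81, against 0.545 to 1.21 elsewhere, so scaling narrows this gap. The sources used here do not state whether strand was used in counting.

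Perigonadal replicate 1 held the highest deposited FPKM of 8 of the 9 members, all but Apln, and the highest scaled FPKM of 5, Retn, Cfd, Rbp4, Agt and Nnat. That library also had the highest FPKM total, 206549 against 75925 to 147932 elsewhere, and the highest scaling factor, 1.81 against 0.545 to 1.21. How many of all genes were highest there was not counted, so these counts show no trait of the members. In that library 18 fibroblast and preadipocyte markers summed to 236 FPKM, against 47.9 in perigonadal replicate 2, 29.7 to 50.2 in inguinal WAT and 9.26 to 16.3 in BAT. After scaling the sum was 131 there and 10.2 to 54.5 elsewhere. Among them the most abundant there were Gsn, which codes for the actin-severing protein gelsolin, at 93.3 FPKM, Col3a1, a collagen, at 45.2 FPKM and Dcn, decorin, at 28.9 FPKM. Dlk1 was listed at 0 in every library. Pi16 had 0.667 FPKM there and 0.840 in perigonadal replicate 2, and Thy1 0.620 there and 0.635 in inguinal replicate 3. Pdgfra, Pdgfrb and Ly6a were highest there as deposited but not after scaling. Of the 18 markers 11 passed the filter, and 9 were called higher in perigonadal WAT than in BAT (5 after scaling). Of all tested genes 4.91 percent were called higher there (2.63 percent after scaling). The 15 markers of mesothelium and the reproductive tract summed to 28.8 FPKM in that library, against 6.66 in perigonadal replicate 2, 5.37 to 12.3 in inguinal WAT and 0.76 to 2.04 in BAT (15.9 there and 0.837 to 10.1 elsewhere after scaling). Of these, Upk3b had 8.16 FPKM and Msln, mesothelin, 2.85 FPKM there. Others went the other way: Krt19 had 1.11 FPKM there and 3.04 to 6.56 in inguinal WAT. Pgr was at 0 there and at 0.294 and 0.0691 FPKM in inguinal replicates 2 and 3. Cyp19a1, Fshr and Inhba were at 0 in every library. Of 3 tested markers 1 was called higher than BAT in perigonadal WAT and 2 in inguinal WAT, beside 4.91 and 1.73 percent of all genes. Macrophage markers summed to 21.0 FPKM there and 5.91 to 15.6 elsewhere, but after scaling to 11.6 there and 17.6 in BAT replicate 3. Endothelial markers summed to 18.0 FPKM there and 1.43 to 9.75 elsewhere (9.98 there and 2.63 to 8.44 elsewhere after scaling). Liver also makes Rbp4 and Agt, and 11 hepatocyte markers summed to 4.66 to 17.6 FPKM in BAT, 30.0 to 56.9 in inguinal WAT and 69.0 to 119 in perigonadal WAT. Trf, transferrin, made up 98.2 and 41.2 FPKM of the perigonadal sums and was called higher in both white depots, the only called gene of the 4 that were tested. Without it, a split made after the values were seen, the other 10 summed to 3.74 to 16.9 FPKM in BAT, 11.2 to 24.5 in inguinal WAT and 20.9 and 27.7 in perigonadal WAT (4.12 to 19.1, 19.8 to 20.49, and 11.6 and 24.0 after scaling), so that perigonadal replicate 1 lay within the range of BAT on the scaled values. The markers Ahsg, Apoa1, Fga and Ttr were at 0 in every library. The part of these other cell types in the members' values was not tested. Without that library Rbp4 was still called against BAT (2.45, adjusted p = 0.00247), and Retn and Cfd were called as well. In inguinal WAT, summed mammary epithelial markers had 122 to 171 FPKM, against 3.87 to 22.3 in the other depots, and their part in the inguinal values was not tested. The BAT sums were almost all Csn3, a casein, which had 7.02, 13.1 and 22.0 FPKM in BAT and 12.5 to 15.3 in inguinal WAT. That marker thus did not set inguinal WAT apart from BAT.

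A within-library ratio does not depend on how the libraries were scaled, so each member was also set against Adipoq of the same library, a choice made after the values were seen. Cfd had 58.3, 40.5 and 92.1 percent of the Adipoq FPKM in inguinal WAT, 104 and 115 percent in perigonadal WAT, and 20.4, 13.1 and 12.7 percent in BAT. Retn had 15.6, 23.7 and 24.8 percent in inguinal WAT, 41.8 and 50.7 percent in perigonadal WAT, and 0.31, 0 and 3.36 percent in BAT. Both genes kept the order perigonadal, inguinal, BAT without overlap. Rbp4 had 1.43 to 2.80 percent in inguinal WAT, 6.27 and 5.88 percent in perigonadal WAT and 0.26 to 1.56 percent in BAT, where inguinal WAT and BAT now overlapped. The perigonadal pair, whose FPKM of Rbp4 had differed widely, lay close together on this ratio. Nampt had 9.72 to 12.9 percent in inguinal WAT, 8.72 and 12.2 percent in perigonadal WAT and 12.9 to 20.6 percent in BAT. Lep did not follow the order of Cfd and Retn, with 1.71, 0.33 and 0.16 percent in inguinal WAT, 1.36 and 0.88 percent in perigonadal WAT and 0.10, 0 and 0 percent in BAT, so that inguinal replicate 1 lay above both perigonadal libraries. Agt and Apln stayed under 1 percent in every library, and Nnat had 4.24 percent in perigonadal replicate 1 and at most 0.19 percent elsewhere. A ratio shows unequal amounts and not which of its genes differed.

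**Figure D3:**
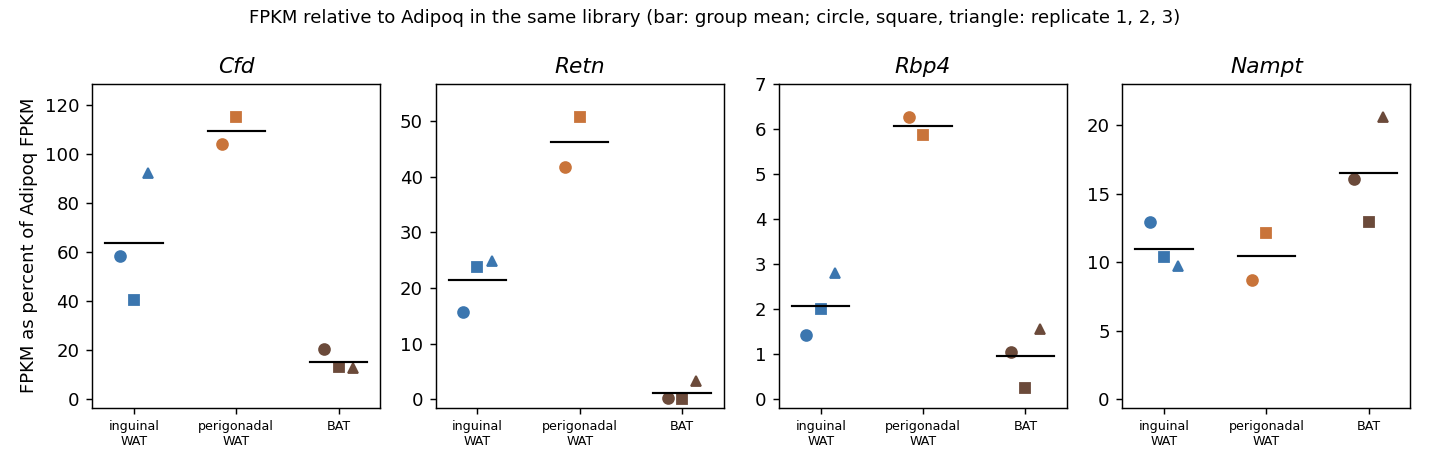
FPKM of Cfd, Retn, Rbp4 and Nampt as percent of Adipoq FPKM in the same library (linear y axis from 0), with group means as bars and replicate numbers as symbols. Cfd reaches 104 and 115 percent in perigonadal WAT and stays at 12.7 to 20.4 percent in BAT.

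Of 25 receptors and binding partners, the files allowed 10 to be tested, and 1 of these was called higher in perigonadal WAT than in BAT and 0 between the white depots, where 5.18 and 0.703 percent of all genes were called, with median log2 differences of 0.26 (inguinal WAT and BAT), 0.87 (perigonadal WAT and BAT) and -0.60 (both white depots). After scaling Adipor1, an adiponectin receptor, was called lower in perigonadal WAT than in BAT (-0.89, limma adjusted p = 0.0322). Enpep, the aminopeptidase that trims angiotensin II, had a mean of 9.93 ± 3.23 FPKM (SD, n = 2) in the perigonadal and 0.955 ± 0.481 (SD, n = 3) in the BAT libraries, and rose by 2.48 on the log2 scale (limma adjusted p = 5.11e-05), a call that held without any 1 library. After scaling it was called in perigonadal WAT (1.93, adjusted p = 0.00394) and also in inguinal WAT against BAT (1.15, adjusted p = 0.0303). Adipor2, the other classical adiponectin receptor, had 96.7 ± 37.4 FPKM in inguinal WAT, 179 ± 36.5 in perigonadal WAT and 79.8 ± 2.62 in BAT, with adjusted p of 0.995, 0.0858 and 0.363. C3, the complement protein that adipsin's pathway cleaves, had 77.4 ± 37.7, 118 ± 20.1 and 87.4 ± 13.5 FPKM and was not called. The list had 7 genes at 0 in every library, among them Stra6, the retinol-binding protein receptor, Ttr, the blood partner of RBP4, and Ren1, renin, which cuts angiotensinogen.

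Of 8 tested NAD salvage genes limma called 0 as deposited in any comparison, beside 2.2, 5.18 and 0.703 percent of all genes. Nnmt, which methylates nicotinamide, had 62.5 ± 31.1 FPKM in inguinal WAT, 58.7 ± 24.3 in perigonadal WAT and 82.1 ± 12.8 in BAT, and was called lower in perigonadal WAT only after scaling (-1.19, adjusted p = 0.0102). Sirt3, a mitochondrial NAD-dependent deacylase, had 9.29 ± 3.70, 13.3 ± 1.67 and 15.2 ± 4.63 FPKM and was not called. Of 14 regulators and folding factors, 1 was called, beside 5.18 percent of all genes in that comparison, Srebf1, a transcription factor of fatty acid synthesis, with 37.7 ± 12.3 FPKM in perigonadal WAT against 9.66 ± 3.09 in BAT (1.87, limma adjusted p = 0.00547, and 1.22 after scaling, adjusted p = 0.0335). Its call was lost without perigonadal replicate 1 (0.401) or BAT replicate 1 (0.0978). P4hb, a protein disulfide isomerase, was called higher in inguinal WAT than in BAT only after scaling (1.04, adjusted p = 0.0272). Cebpb and Cebpa, transcription factors of adipocyte differentiation, were not called, at 47.8 ± 24.5 and 32.0 ± 15.3 FPKM in inguinal WAT, 91.8 ± 39.5 and 64.2 ± 26.0 in perigonadal WAT and 73.7 ± 15.0 and 30.2 ± 4.06 in BAT.

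Among 57 other adipokines and secreted factors in the files 31 were tested. In inguinal WAT 2 were called higher and 2 lower than in BAT, in perigonadal WAT 9 higher and 1 lower, and between the white depots 1 higher and 1 lower (4 and 3, 5 and 2, and 1 and 0 after scaling). The shares of all tested genes called higher and lower were 1.73 and 0.469, 4.91 and 0.268, and 0.301 and 0.402 percent in that order. After scaling they were 3.04 and 1.65, 2.63 and 3.46, and 0.313 and 0 percent. Genes low in BAT passed the filter through the white libraries, so these counts are no test of the list. The medians of the 31 genes were 0.19, 0.85 and -0.73 (0.19, 0.40 and -0.26 after scaling). Differences and adjusted p of the single genes named from this list are as deposited. Lcn2, lipocalin 2, an iron-siderophore binding protein that epithelia also secrete, had 32.9, 27.2 and 9.32 FPKM in inguinal WAT, 3.56 and 0.671 in perigonadal WAT and 0, 2.22 and 0.779 in BAT. It rose in inguinal WAT against BAT (3.58, limma adjusted p = 3.99e-09) and against perigonadal WAT (2.96, adjusted p = 7.6e-05), and both calls held without any 1 library. The inguinal libraries are those with the highest mammary marker sums, whose part in Lcn2 was not tested.

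Gpx3, a glutathione peroxidase of plasma, had 51.9, 103 and 47.2 FPKM in inguinal WAT, 153 and 102 in perigonadal WAT and 174, 387 and 235 in BAT. It fell in inguinal WAT against BAT by 1.97 on the log2 scale (limma adjusted p = 0.000128), without loss of the call when any 1 library was left out. Gdf15, a stress hormone that acts on the hindbrain, was at 0.458 ± 0.397 FPKM in inguinal WAT, 0.802 ± 1.13 in perigonadal WAT and 5.15 ± 2.90 in BAT. It fell in both white depots, by 1.97 (adjusted p = 0.000742, lost without inguinal replicate 1 at 0.0661) and by 1.78 (adjusted p = 0.00808, lost without perigonadal replicate 2 at 0.159 and BAT replicates 1 and 3 at 0.0626 and 0.0577). Pltp, the phospholipid transfer protein, had 14.4 ± 8.55, 30.7 ± 20.3 and 4.02 ± 0.724 FPKM in the same order. It rose by 1.48 in inguinal WAT (adjusted p = 0.0408, lost without inguinal replicate 1 or 2 at 0.141 and 0.471 and BAT replicate 1, 2 or 3 at 0.104, 0.166 and 0.225) and by 2.50 in perigonadal WAT (adjusted p = 0.000168, lost without perigonadal replicate 1 at 0.165).

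The other 8 secreted factors called higher in perigonadal WAT than in BAT all depended on single libraries. Their differences are as deposited, in a comparison where the median over all tested genes was 0.52. After scaling, 5 of the list were called higher in place of 9, and which of the named calls were kept is not given here. Igf1, insulin-like growth factor 1, had 10.6 and 2.00 FPKM in perigonadal replicates 1 and 2 and 0 to 1.01 FPKM elsewhere. It rose against BAT by 2.26 (limma adjusted p = 0.000295) and was called lower in inguinal than in perigonadal WAT (-2.14, adjusted p = 0.00354). Both calls were lost without perigonadal replicate 1 (0.437 and 0.998), and the second also without inguinal replicate 1 (0.118) or 3 (0.221). Rarres2, which codes for chemerin, rose by 1.88 (adjusted p = 0.00615, lost without perigonadal replicate 1 at 0.206 and BAT replicate 3 at 0.155), and Vegfa, an angiogenic factor, rose by 1.83 (0.011, lost without perigonadal replicate 1 at 0.971 and BAT replicate 1 at 0.0878). Cmklr1, the chemerin receptor, and Serpinf1, which codes for PEDF, had 3.11 ± 2.48 and 3.40 ± 2.12 FPKM against 0 in all BAT libraries (1.90 and 2.05, adjusted p = 0.00188 and 0.00047) and fell below the filter without either perigonadal library. Cmklr1 and Serpinf1 thus passed the filter only through the perigonadal libraries, where they were high, so these p-values are no support for a difference. Sparc, a matrix glycoprotein, rose by 1.497 (0.023, lost without perigonadal replicate 1 at 0.792 and BAT replicates 1 to 3 at 0.103, 0.113 and 0.0773). Angptl2, an angiopoietin-like protein, rose by 1.48 (0.0294, lost at 0.987 without perigonadal replicate 1 and at 0.0786, 0.087 and 0.107 without BAT replicates 1 to 3). Igfbp4, which binds insulin-like growth factors, rose by 1.40 (0.0466, lost at 0.057 without inguinal replicate 1, at 0.925 without perigonadal replicate 1 and at 0.083, 0.224 and 0.116 without BAT replicates 1 to 3). The fibroblast marker sum given above was also highest in perigonadal replicate 1. Whether these genes follow it, and its part in their values, was not tested.

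For each tested member the genes with the most similar profile over the 8 libraries were looked up among 3100 tested genes with a mean of at least 5 FPKM, by the root mean square difference of centred log2(FPKM + 1). For Retn these were Car3, a carbonic anhydrase of adipocytes, at 0.558, Scd2 at 0.631 and Scd1 at 0.841, the last 2 being fatty acid desaturases. For Cfd they were Car5b (0.522), Pnpla3 (0.562) and Anxa1 (0.566), and for Rbp4 Pnpla3 (0.434), Col3a1 (0.460) and Elmod2 (0.479). For Lep they were Steap4 (0.317), Ehd2 (0.342) and Xdh (0.3498). Adipoq and Nampt, which varied less, had closer neighbours, Arl4a (0.0908), Spg7 (0.0989) and Magt1 (0.0996) for Adipoq and Ndrg2 (0.0639), Cox4nb (0.101) and Mrpl21 (0.102) for Nampt. The libraries share their depth differences across all genes, which also enters these distances.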

How the data were processed

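RNA bound to GFP-tagged ribosomes was sequenced in 8 libraries, grouped by the tissue labels and numbered by the titles. The submitters' processing notes name TopHat, Cufflinks and the build mm9. Their versions and options were not given in the sources used here. The deposited values, made by the authors for 1 library each, are FPKM per transcript with confidence bounds, held in a text attribute, and no read counts. For genes with 1 transcript, fragments were recovered from FPKM and its upper bound. Among values up to 20 fragments, 83.8 to 92.7 percent per library were whole within 0.05. Other fragment numbers are estimates, and floors of 3 fragments cover only counting error. In every library, Gapdh and Actb were above 0.

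FPKM was summed per gene. Genes with 1 or more FPKM in 2 or more libraries whose longest transcript reached 300 nt were tested with limma 3.58.1 (R 4.3.3), with a trend of variance on expression, two-sided, on log2(FPKM + 1), in 1 model of 3 groups. This scale understates changes of low genes. Benjamini-Hochberg adjustment ran over all 8958 genes within a comparison. The test was checked on simulated data. Tables were made with numpy 2.4.6 and pandas 2.3.3 in Python 3.11.15, and figures with matplotlib 3.10.9.

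The members, gene lists and tests were chosen with earlier results of these data known. Named were all 9 members, every called gene of 4 related lists (receptors and binding partners, NAD salvage, regulators and folding factors, other secreted factors), the most abundant up to 3 where fewer than 3 were called, and the 3 genes nearest to each tested member. The result of 1 gene that this rule takes is not reported here. Blcap, Ucp1 and the named cell type markers were added as context. Marker lists were thermogenic, mature and white adipocyte, macrophage, endothelial, fibroblast and preadipocyte, smooth muscle, mammary epithelial, hepatocyte, neuron and glia, and mesothelium and reproductive tract. Alternatives were pseudocounts of 0.1 and 5, no filter, a minimum FPKM of 5, median-ratio scaling, each library left out, a block for the replicate number, a fit without the variance trend, fits to a single pair of groups and the most abundant transcript of a gene in place of the sum.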

Additional observations from a re-analysis of the deposited data

How the results depend on the processing

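The counts of called genes over the whole table, 197, 464 and 63 for inguinal WAT against BAT, perigonadal WAT against BAT and inguinal against perigonadal WAT, moved with the libraries and settings used. With 1 library left out they ran from 109 to 336, from 105 (without perigonadal replicate 1) to 1326 (without inguinal replicate 3), and from 11 to 220. A pseudocount of 0.1 gave 131, 214 and 5, and one of 5 gave 146 for the last comparison. No filter on low values gave 6 and 117 for the comparisons with BAT, a minimum FPKM of 5 gave 124, 307 and 32, and the most abundant transcript gave 93, 174 and 12. Median-ratio scaling gave 420 and 28 for inguinal WAT against BAT and against perigonadal WAT, and a fit of those groups alone 35 for the white depots.

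Among the members, Nampt in perigonadal WAT against BAT turned to -0.55 after scaling and ran from -0.14 to 0.33 with 1 library left out. Adipoq and Nampt turned to 0.042 and 0.12 between the white depots after scaling, and Adipoq in inguinal WAT against BAT ran from -0.10 to 0.43 with 1 library left out. None of these was called. Without the filter, more genes share the adjustment and the trend of variance, and the calls of Retn and Cfd in inguinal WAT against BAT (adjusted p = 0.219 and 0.304), of Lep and Rbp4 in perigonadal WAT against BAT (0.414 and 0.0866) and of Rbp4 between the white depots (0.416) were lost. Those of Retn and Cfd in perigonadal WAT against BAT were not. Agt, Apln and Nnat entered the fit only without the filter and were not called (adjusted p of 0.438 to 1 over the 3 comparisons). Other losses were Lep under the most abundant transcript (0.0845) and Rbp4 between the white depots under it (0.197) and under a pseudocount of 0.1 (0.471). Retn between the white depots passed with a pseudocount of 5 (0.00763) or a minimum FPKM of 5 (0.0214).

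Whether the replicate numbers pair the samples was not settled. Deviations of same-numbered libraries correlated at 0.126, 0.0804 and 0.1 between inguinal WAT and BAT, where differently numbered ones ran from -0.0773 to -0.0329. Same-numbered libraries correlated at -0.0272 and -0.0871 between the white depots, and at -0.0136 and -0.0184 between perigonadal WAT and BAT. The deviations of 2 perigonadal libraries mirror each other, so correlations with that group cannot show pairing. With the replicate number as a block the counts were 280, 418 and 88, Retn and Cfd between the white depots passed (-2.01, adjusted p = 0.00134, and -1.35, adjusted p = 0.0497), and Nampt in perigonadal WAT against BAT was at -0.079.

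Depth limits Lep in BAT, Agt and Apln, whose values rest on few fragments. Nnat rests on 1 library that stands apart. The perigonadal group has 2 libraries, which leaves a lone library to stand for it when 1 is left out, assumed to vary like the other groups.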

Other observations

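Other adipocyte genes of the same libraries also differed between depots. Among 10 tested white adipocyte markers, 3 were called higher in inguinal WAT than in BAT and 4 in perigonadal WAT, by limma with Benjamini-Hochberg adjustment (3 and 4 after scaling, with Nnmt lower in perigonadal WAT). Of all tested genes 1.73 and 4.91 percent were called higher in these comparisons (3.04 and 2.63 percent after scaling). Car3, a carbonic anhydrase, had mean FPKM of 97.6 in inguinal WAT, 327 in perigonadal WAT and 3.21 in BAT (log2 differences from BAT 4.69 and 6.19, adjusted p = 4.36e-14 and 2.49e-17). Psat1, an enzyme of serine synthesis, and Fads1, a fatty acid desaturase, were called in both depots. The inguinal call of Psat1 was lost without inguinal replicate 1 or 2 (adjusted p = 0.062 and 0.155) or BAT replicate 1, 2 or 3 (0.0794, 0.196 and 0.0664), and that of Fads1 without BAT replicate 1 (0.0837). Slc7a10, an amino acid transporter, had 25.8 and 3.57 FPKM in perigonadal replicates 1 and 2 against a mean of 0.0994 in BAT, a log2 difference of 3.34 (adjusted p = 2.02e-07), and 2.07 without perigonadal replicate 1 (adjusted p = 0.0123). Slc7a10 was also the 1 marker called lower in inguinal than in perigonadal WAT (-2.26, adjusted p = 0.00351, and 0.226 after scaling), a call lost without inguinal replicate 1 (0.0636), inguinal replicate 3 (0.326) or perigonadal replicate 1 (0.998). Of 18 mature adipocyte markers, 2 were called higher in inguinal WAT than in BAT (Scd1 and Fasn, enzymes of fatty acid synthesis) and 8 in perigonadal WAT (3 and 4 after scaling), beside the same shares of all genes. Without perigonadal replicate 1, 2 of the 8 perigonadal calls remained, Scd1 and Fasn, and the calls of Fabp4, Plin1, Plin4, Cidec, Pnpla2 and Acsl1 were lost (adjusted p = 0.821, 0.979, 0.0781, 0.515, 0.731 and 0.979). Leaving out BAT replicate 2 or 3 kept 4 of the 8.

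Of 11 tested thermogenic markers, inguinal WAT had 2 called below BAT, the cytochrome c oxidase subunits Cox8b (659 against 1652 FPKM, adjusted p = 0.000298) and Cox7a1 (418 against 1009.7 FPKM, adjusted p = 0.00188), and perigonadal WAT had Cox7a1 (adjusted p = 0.0282). Leaving out BAT replicate 2 ended the inguinal Cox7a1 call (0.054), and the perigonadal one ended without perigonadal replicate 1 (0.715) or BAT replicate 1, 2 or 3 (0.12, 0.177 and 0.0627). After scaling 3 were called lower in each white depot. Of all tested genes 0.469 percent were called below BAT in inguinal WAT and 0.268 percent in perigonadal WAT (1.65 and 3.46 percent after scaling). Against either other depot, inguinal WAT had 4 of 7 tested smooth muscle markers and 10 of 14 tested mammary epithelial markers called higher. All tested genes were called higher there in 1.73 percent against BAT and 0.301 percent against perigonadal WAT. Of 3 tested neuron and glia markers 0 were called by limma as deposited, and after scaling 1 was, S100b, lower in perigonadal WAT than in BAT (adjusted p = 0.0423). Of 6 macrophage markers 1 was called, Cd14 in inguinal WAT (adjusted p = 0.0234), which missed the threshold when BAT replicate 1 (0.154) or 3 (0.133) was left out and was not testable without inguinal replicate 1 or 2. Of 3 endothelial markers 1 was called, Emcn in perigonadal WAT (adjusted p = 0.0223), which passed the filter only through the perigonadal libraries. Leaving out BAT replicate 1, 2 or 3 ended that call (0.0849, 0.083 and 0.0808).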
